A study of Homo sapiens with 12 samples.

Results

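Long genes carry most of their length in introns, and the fragments that fall there were read here for 223 human genes of at least 150 kb. The rule uses annotation and no measured value, and takes protein-coding genes listed at 150000 bases or more, with more than 1 merged exon block and no overlap with another listed gene on either strand. They are 223 of 58051 listed genes, and of 2119 protein-coding genes of that length with more than 1 exon block; the others overlap a listed gene. The 12 libraries, in 6 groups of 2, hold RNA of HCT116, a line grown from a human colon carcinoma. The cells had received an siRNA (a double-stranded RNA that directs destruction of a matching transcript) named for a control (siControl) or for PFDN2 or PFDN5 (siPFDN2, siPFDN5), subunits of the chaperone prefoldin. All groups, the controls included, were transfected and, 24 h later, deprived of serum for 48 h, and were taken either before serum was given back or 90 min after it. No label says that the 2 libraries of a group came from separate cultures, so p-values measure the spread between libraries, which may be technical.

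A gene is transcribed from its start to its end by RNA polymerase II, and introns are cut out while the polymerase is still moving. A long gene takes longer to transcribe than a short one, and its unspliced RNA is spread over more intron. The cut introns are usually degraded in the nucleus within minutes, whereas the spliced exons persist as messenger RNA. In libraries primed with random hexamers, as per the labels' protocol, introns are read together with exons. Serum given back to starved cells starts transcription of early response genes, among them regulators of the actin cytoskeleton.

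The promoters of 6 named members are printed here from annotated starts, and which starts were used in these cells was not measured. Introns of SAMD4A, DAAM1, PDLIM5 and WWC1 were higher after serum in siControl, as given further on. Those of KDM4B were lower in siPFDN2, and those of BBX in the libraries labelled siPFDN5. These directions did not all hold with every siRNA, and DAAM1 was not higher in the libraries labelled siPFDN5. RefSeq (GRCh38.p14) listed a promoter window for 185 of the 223 members, with a start within 500 bases of the deposited 5′ end for 150. Only the bases before the more upstream of the RefSeq start and the deposited 5′ end are printed, 5′ to 3′ and on the plus strand for all 6, and those starts lay 0 to 85 bases apart. Capitals mark matches on either strand to GGGCGG (GC box) or to the box CCAAT, which overlap once in KDM4B. No match to TGANTCA (AP-1), to TGACGTCA (CRE) or to the CArG box was found in these 6.
SAMD4A (chr14:54566878-54567096): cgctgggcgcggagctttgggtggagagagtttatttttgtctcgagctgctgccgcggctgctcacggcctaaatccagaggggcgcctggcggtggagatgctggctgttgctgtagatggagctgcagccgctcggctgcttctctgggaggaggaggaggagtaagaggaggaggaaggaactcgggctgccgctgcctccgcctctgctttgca
DAAM1 (chr14:59188417-59188645): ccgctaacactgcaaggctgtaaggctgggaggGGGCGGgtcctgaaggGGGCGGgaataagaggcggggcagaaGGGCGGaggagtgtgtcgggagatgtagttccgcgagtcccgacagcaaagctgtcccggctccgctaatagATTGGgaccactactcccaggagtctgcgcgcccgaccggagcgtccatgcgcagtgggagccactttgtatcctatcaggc
PDLIM5 (chr4:94451692-94451856): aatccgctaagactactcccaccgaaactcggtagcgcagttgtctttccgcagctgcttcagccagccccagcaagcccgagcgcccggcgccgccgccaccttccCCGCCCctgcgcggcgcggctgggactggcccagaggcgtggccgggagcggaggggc
WWC1 (chr5:168291395-168291644): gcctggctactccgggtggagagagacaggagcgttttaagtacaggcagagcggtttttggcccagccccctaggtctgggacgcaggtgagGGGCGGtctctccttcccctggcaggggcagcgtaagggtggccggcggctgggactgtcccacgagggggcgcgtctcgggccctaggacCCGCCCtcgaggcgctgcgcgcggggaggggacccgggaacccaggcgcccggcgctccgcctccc
KDM4B (chr19:4968863-4969112): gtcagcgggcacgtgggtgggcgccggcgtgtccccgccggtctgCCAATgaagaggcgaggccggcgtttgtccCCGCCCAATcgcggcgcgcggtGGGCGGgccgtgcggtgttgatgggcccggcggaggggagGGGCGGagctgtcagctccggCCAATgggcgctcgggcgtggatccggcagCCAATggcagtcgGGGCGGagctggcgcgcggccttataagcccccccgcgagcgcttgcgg
BBX (chr3:107522712-107522935): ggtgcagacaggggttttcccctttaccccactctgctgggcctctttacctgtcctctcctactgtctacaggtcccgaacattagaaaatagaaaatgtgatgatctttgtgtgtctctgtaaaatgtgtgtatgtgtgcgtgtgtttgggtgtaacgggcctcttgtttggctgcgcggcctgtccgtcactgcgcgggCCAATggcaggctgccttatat

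Over whole windows of 300 bases, GGGCGG stood in 44.9% of all 34796 listed windows and in 61.3% of the 150 members' windows, whose median GC content was 66.7% against 58.7%. CCAAT stood in 34.6% and 26.7% of them, TGANTCA in 7.73% and 6%, TGACGTCA in 1.84% and 4%, and the CArG box in 1.30% and 0%. A match is only a run of letters, no match says only that these letters are not in the window, and the members lie in windows richer in G and C.

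The members were 150.163 to 1194.15 kb long, with a median of 209.432 kb, and 109 of the 223 lay on the plus strand. They had between 3 and 100 merged exon blocks, with a median of 23. Introns made up a median of 96.3% of a member's length, and a member's longest intron had a median of 66.7 kb. Members differed widely in structure. In EXT1, which elongates heparan sulfate chains, 1 intron of 272.883 kb filled most of the 317.364 kb gene, whereas MYOF, a membrane repair protein, had 56 introns and none above 21.242 kb. The 2 genes just inside the length limit were KIF21A, a kinesin motor (150163 bases), and ANKRD36 (151026 bases), with intron shares of 7.19% to 20.9% and of 36.6% to 63.2% over the 12 libraries. Just outside it lay EXT2 (149881 bases; 3.29% to 16.6%) and SNX13 (149741 bases; 5.05% to 21.6%).

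An intron count is the number of fragments counted for the whole gene body minus those counted for its exons, so it holds the fragments that touch no annotated exon. Intron share is the intron count as a percent of the gene-body count. Wherever a log2 fold change or its median is given for intron share, it is of the ratio of intron to exon counts. Such a change is therefore larger than that of the percent itself. Intron density is the intron count per Mb of intron per 1000000 gene-body counts of the library (as for CPM, which is here the gene-body count on that scale without the length), after scaling by trimmed mean of M values (TMM), and exon density is the same for exons. Gene-body counts came to 59784425 to 136504590 per library, and the members' introns held 43088 to 199308 of them. NR4A3, an early serum gene, stood at 0.678 to 1.84 CPM before serum and at 249 to 312 after it. PFDN2 stood at 7.57 and 9.09 CPM in siPFDN2 against 11.6 and 11.2 in siControl before serum, and at 8.70 and 9.54 against 19.03 and 16.3 after it. PFDN5 stood at 39.8 and 43.2 in siPFDN5 before serum against 77.5 and 68.9 in siControl, but in the libraries labelled siPFDN5 after serum it stood at 67.3 and 67.9 against 66.2 and 74.2. Those libraries therefore go against their label, and every result below that rests on them is of libraries so labelled. Epithelial markers were present throughout (KRT8 654 to 1182 and EPCAM 162 to 239 CPM), and PTPRC, a leukocyte marker, did not pass 0.139 CPM. COL1A1, of the fibroblast markers, reached 3.97 to 16.8 CPM, and COL3A1 0.0424 to 0.294.

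A pair of libraries stood apart. In siControl after serum, replicate 1 exceeded replicate 2 in 177 of 191 tested members, by a median of 1.17 on the log2 scale; in the other 5 groups this median lay between -0.20 and 0.32. FOS and EGR1, early serum genes, were also higher in that replicate, at 66.4 and 134 CPM against 35.6 and 83.5. NR4A3, another early serum gene, was nearly the same in both, at 284 CPM against 280. In siPFDN2 before serum, replicate 2 differed from the other libraries by GC content, with a Spearman's rho across genes of 0.58 between a gene's intron deviation and its GC content against -0.30 to 0.28 elsewhere. This was not confined to introns, since for whole gene bodies the rho was 0.77 against -0.36 to 0.14 elsewhere. The part of these differences in the results was not tested.

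Of the 223 members, 191 had enough intron fragments for the test of intron counts and 150 had enough intron and exon fragments for the test of intron share. Mean intron density ran from 0.154 to 268 per Mb among the 216 members with any exon fragment, and it rose with exon density (Spearman's rho 0.89 over 191 members, a description, since both come from the same libraries). MYOF had the highest intron density, between 179 and 514 per Mb. PAM, an enzyme that amidates peptide hormones, followed with 98.9 to 568, and then ADGRA3, an adhesion receptor (75.5 to 277), PDLIM5, a scaffold on actin fibres (42.6 to 360), and CAMK2D, a calcium-dependent kinase (68.5 to 249). The order among these 5 did not hold in every library, and PAM passed MYOF in siPFDN5 before serum replicate 1 and in siControl after serum replicate 1.

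**Figure D1:**
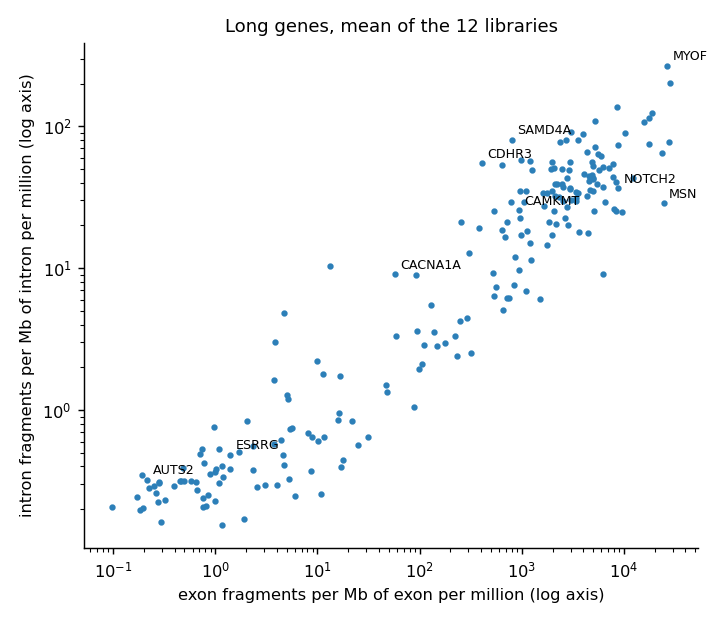
Intron density against exon density, each the mean of the 12 libraries on a log axis, with 1 point for each of the 216 members that had fragments in both. Intron density levels off toward its lowest value of 0.154 per Mb where exon density is lowest, and CACNA1A, CDHR3 and SAMD4A lie above most genes of like exon density whereas MSN lies below.

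The 5 longest genes had few fragments. AUTS2, a chromatin regulator of 1194.15 kb, had exon fragments in 2 of 12 libraries and an intron density of 0.236 to 0.554 per Mb. NPAS3, a transcription factor, lay between 0.277 and 0.846, ADGRB3, an adhesion receptor of neurons, between 0.0777 and 0.290, SPOCK1, a proteoglycan, between 0.159 and 0.662, and ESRRG, an orphan nuclear receptor, between 0.225 and 1.077. Over the 45 members with the lowest mean exon density, pooled intron density was 0.254 to 0.344 per Mb in 11 libraries and 0.484 in siPFDN2 before serum replicate 2, resting on 227 to 642 fragments a library. In siControl after serum it was 0.308 in replicate 1 and 0.278 in replicate 2. In the 45 members with the highest exon density it was 135 and 54.2 in the same libraries.

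Among the 113 members with a mean gene-body count of at least 500, mean intron share ran from 2.79% to 72.6%. The highest mean shares belonged to CDHR3, a cadherin-related membrane protein (58.1% to 83.1% over the libraries), CAMKMT, which methylates calmodulin (51.4% to 86.2%), and CACNA1A, a neuronal calcium channel (52.1% to 68.3%). MSN, which links the membrane to actin, had the lowest, with 1.72% to 7.43%. NOTCH2, a receptor, followed with 2.32% to 5.47%, and SLC44A1, a choline transporter, with 1.26% to 7.46%. Share fell with exon density among these 113 members (rho -0.63), which is partly built in, since exon counts also enter the share. The rho of share was 0.22 with length, -0.06 with intron number and 0.23 with GC content. Counts of NOTCH2 and ANKRD36, which have near-identical copies elsewhere in the genome, and exon counts of MSN and GNAQ, which have processed pseudogenes, are uncertain.

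The main pattern was between groups. Pooled over the 223 members, introns held 14.4% and 15.8% of gene-body fragments in siControl before serum and 14.6% and 18.6% in siPFDN2 before serum, but 25.6% and 20.4% in siPFDN5 before serum. After serum the share was 32.2% and 14.9% in siControl and 16.5% and 15.9% in siPFDN2, and it was 10.3% and 10.5% in the libraries labelled siPFDN5. The lowest share of all 12 libraries thus belonged to both libraries labelled siPFDN5 after serum, and siPFDN5 before serum was above every other library but replicate 1 of siControl after serum. As group means these were 15.1% ± 0.954, 16.6% ± 2.83 and 23.05% ± 3.67 before serum and 23.5% ± 12.3, 16.2% ± 0.462 and 10.4% ± 0.122 after it (SD, n = 2 each).

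Exons of the same genes did not follow. Pooled exon density stood at 2569 and 2757 per Mb in siControl, 2587.5 and 2134 in siPFDN2 and 2636.5 and 2664.5 in siPFDN5 before serum. After serum it was 2531 and 2669.6, 2581 and 2622, and 2713 and 2619.7 in the same order. Pooled intron density stood at 15.7 and 18.7, 16.1 and 17.8, and 33.0 and 24.9 per Mb before serum. After it, it stood at 43.7 and 16.9, 18.6 and 18.0, and 11.4 and 11.2 per Mb. From siPFDN5 before serum to the libraries so labelled after it, the mean intron density therefore went from 28.96 ± 5.76 to 11.3 ± 0.132 per Mb, while mean exon density was 2650.5 ± 19.8 and 2666.5 ± 66.2 (SD, n = 2). In bulk libraries, fewer cells that transcribe a gene and less unspliced RNA per cell cannot be told apart.

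**Figure D2:**
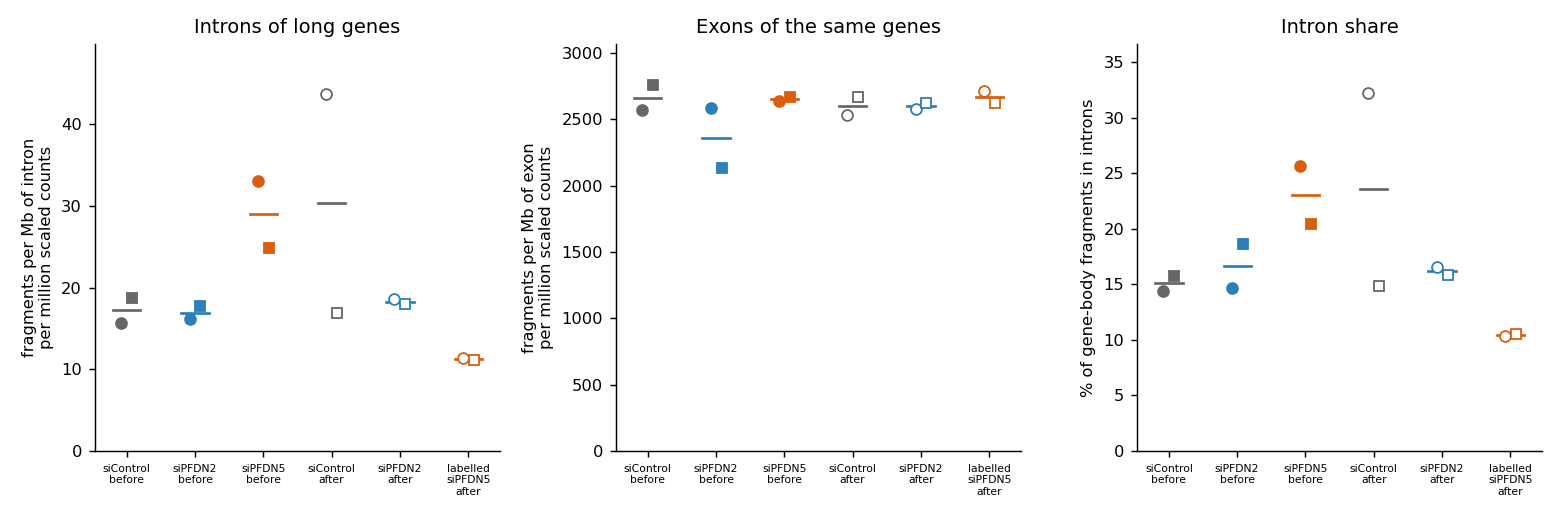
Intron density, exon density and intron share pooled over the 223 members, with 1 point per library (circle, replicate 1; square, replicate 2; filled, before serum; open, after serum) and a bar at the mean of each group of 2. Intron share spans 10.3% to 32.2% while exon density stays between 2134 and 2757 per Mb.

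The median intron density over the 191 tested members was 26.4 to 32.2 per Mb in siPFDN5 before serum and 8.90 to 9.14 in those labelled siPFDN5 after serum. Medians were 14.5 to 18.5 in siControl and 14.04 to 15.4 in siPFDN2 before serum, and 13.4 to 33.0 and 13.2 to 13.4 after it. The members that were tested had passed a filter on low intron counts, so these medians do not describe all 223. Without the filter the group medians before serum were 7.75 per Mb in siControl, 7.68 in siPFDN2 and 14.7 in siPFDN5.

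Shorter genes showed the same direction with a smaller range in percentage points. Among the 6309 protein-coding genes under 150 kb chosen by the same rule, introns held 5.67% and 5.35% of fragments in siControl, 5.43% and 6.23% in siPFDN2 and 7.06% and 6.13% in siPFDN5 before serum. After serum they held 8.57% and 4.96%, 5.35% and 4.62%, and 3.13% and 3.14%. The members' share was 2.54 to 3.76 times that of the shorter genes, lowest in siControl before serum replicate 1 and highest in siControl after serum replicate 1. This ratio had a mean of 3.48 in siPFDN5 before serum and of 3.33 in the libraries so labelled after it. The pooled share thus fell by a similar factor in both sets there. In the 9 length classes, share rose from each class to the next in each of the 12 libraries, from 0.888% to 1.71% under 10 kb to 23.3% to 57.4% at 500 kb and over.

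**Figure D3:**
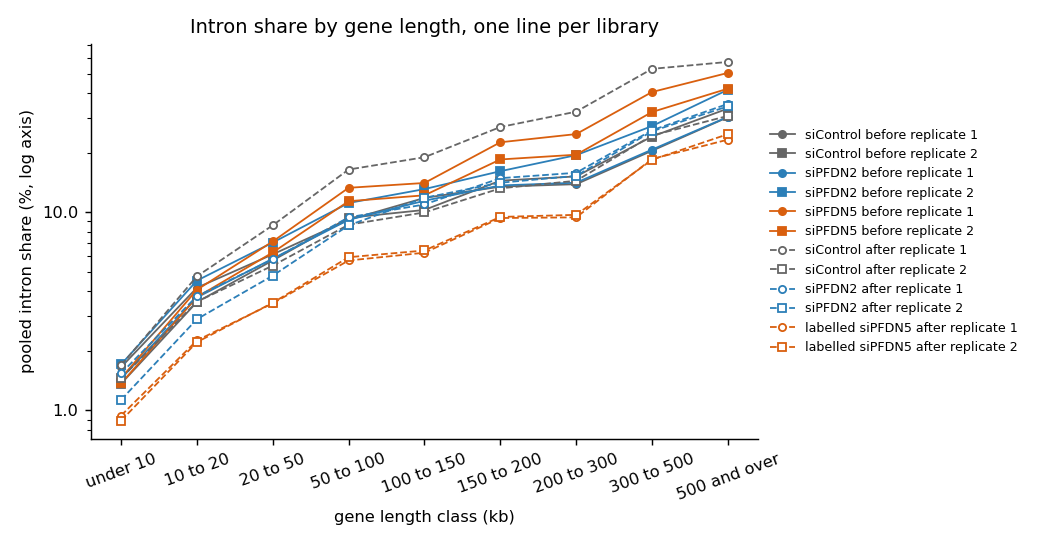
Pooled intron share, on a log axis, against gene length class, with 1 line per library, for protein-coding genes with several exon blocks that overlap no other gene. The 2 libraries labelled siPFDN5 after serum run lowest in all 9 classes, and siControl after serum replicate 1 runs highest in the classes from 10 kb upward.

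The fall in siPFDN5 was larger in each longer class up to 300 kb. Among genes with a mean intron count of at least 200, the median log2 fold change from before serum to after it in siPFDN5 was 0.07 under 10 kb (32 genes), -0.26 at 10 to 20 kb (163), -0.72 at 20 to 50 kb (540), -1.11 at 50 to 100 kb (372) and -1.34 at 100 to 150 kb (154). In the members it was -1.50 at 150 to 200 kb (52), -1.71 at 200 to 300 kb (41), -1.57 at 300 to 500 kb (11) and -1.48 in the longest class (4). Of these, 0, 28, 265, 276 and 130 shorter genes and 45, 37, 8 and 4 members were called lower, where 37.5% of all genes tested were. The median GC content of the classes also went from 52.3% under 10 kb to 41.6% at 200 to 300 kb and 42.5% in the longest class, and its part in this gradient was not tested by class. Over all tested genes of each class, with no minimum of 200, the medians were -0.29, -0.59, -0.84, -1.12 and -1.27 below 150 kb. In the members' classes they were -1.39, -1.55, -0.66 and -0.99, so the fall was smaller from 300 kb upward. There, 56 of 77, 53 of 72, 11 of 33 and 5 of 9 were called lower. Among the 191 members themselves the fall was not larger in longer genes (rho 0.22 between log2 fold change and length), and it went with exon density (rho -0.45).

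Each gene was then tested in edgeR's quasi-likelihood model over all 12 libraries where a call means an adjusted p under 0.05 (Benjamini-Hochberg, over the 19755 genes tested, two-sided). From siPFDN5 before serum to the libraries labelled siPFDN5 after serum, introns of 125 of 191 members were called lower and 2 higher, where 37.5% of all genes were called lower and 2.7% higher. The median log2 fold change was -1.34 over these members and -0.65 over all genes tested. In the test of intron share, which compares introns with exons inside each library, 113 of 150 members were called lower and 0 higher (44.2% and 0.792% of all 17303 genes), with medians of -1.50 and -0.79. Of the 150, 120 had an unadjusted p under 0.05 in either direction, and only edgeR was run on shares. With the scaling taken from introns themselves the median of all genes moved from -0.65 to -0.01 and that of the members to -0.67, and 83 members were called lower and 6 higher. Without any 1 library, 65 to 138 members were called lower in intron counts, the fewest without replicate 1 labelled siPFDN5 after serum, against 74 without siPFDN5 before serum replicate 1 and 70 without the other library labelled siPFDN5 after serum. In intron share 9 to 125 were called lower, with 9 without siPFDN5 before serum replicate 1, 43 and 59 without replicate 1 or 2 labelled siPFDN5 after serum. With introns and exons scaled separately 60 members were called lower and 5 higher in share, and with a trend on transcript GC content removed 59 and 5.

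Among members with a mean of at least 200 intron fragments a library, ARID5B, BBX and GNAQ fell most in siPFDN5. ARID5B (ENSG00000150347, GRCh38 chromosome 10, 61901300 to 62096944), a DNA-binding protein, had intron densities of 67.0 and 49.6 per Mb in siPFDN5 before serum and of 7.39 and 7.72 in the libraries so labelled after it. It stood at 36.0 and 41.4 in siControl and 16.2 and 20.2 in siPFDN2 before serum, and at 36.3 and 16.0, and 11.7 and 13.4, after it. The libraries labelled siPFDN5 after serum were thus the lowest of the 12. The log2 fold change in siPFDN5 was -2.93 (SE 0.36, adjusted p = 0.000639, edgeR). ARID5B exons moved less, from 3390 and 3446 to 2212 and 2182 per Mb.

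BBX (ENSG00000114439, chromosome 3, 107522936 to 107811324), an HMG-box protein, stood at 117 and 78.0 per Mb in siPFDN5 before serum, above all other libraries, and at 13.97 and 13.7 in those labelled siPFDN5 after it, below all others. In siControl it stood at 35.6 and 45.2 before serum and 59.7 and 20.3 after it, and in siPFDN2 at 43.6 and 40.9, then 26.9 and 27.3. Its log2 fold change in siPFDN5 was -2.81 in intron counts (SE 0.41, adjusted p = 0.00113) and -2.77 in intron share (SE 0.45, adjusted p = 0.0032, edgeR). GNAQ (ENSG00000156052, chromosome 9, 77716087 to 78031458), a G protein alpha subunit, went from 76.9 and 52.4 to 8.93 and 10.6 per Mb, a log2 fold change of -2.72 (SE 0.53, adjusted p = 0.00293). In siControl GNAQ introns stood at 17.3 and 31.3 before serum and at 62.7 and 14.04 after it, so that the groups overlapped. BCKDHB is a subunit of the enzyme that degrades branched-chain amino acids. Its intron shares in siPFDN5 were 75.1% and 62.7% before serum and 25.8% and 27.6% after it. The log2 fold change of its ratio of intron to exon counts was -2.62 (SE 0.54, adjusted p = 0.00553, edgeR). PLA2G4A, cytosolic phospholipase A2, was named after its values had been seen. It was called lower with each siRNA, by -1.47 (adjusted p = 0.0302), -1.59 (adjusted p = 0.0236) and -3.33 (adjusted p = 0.000622) in the order siControl, siPFDN2 and siPFDN5, with a mean of 120 intron fragments a library. The siControl value was -2.26 without replicate 1 after serum, and it reached -0.91 among the 12 fits that left out 1 library. The siControl call was lost in 2 of these fits and the siPFDN5 call in 0. The siPFDN2 call was lost in 4, including the fit without siPFDN2 before serum replicate 2 (-1.72).

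**Figure D4:**
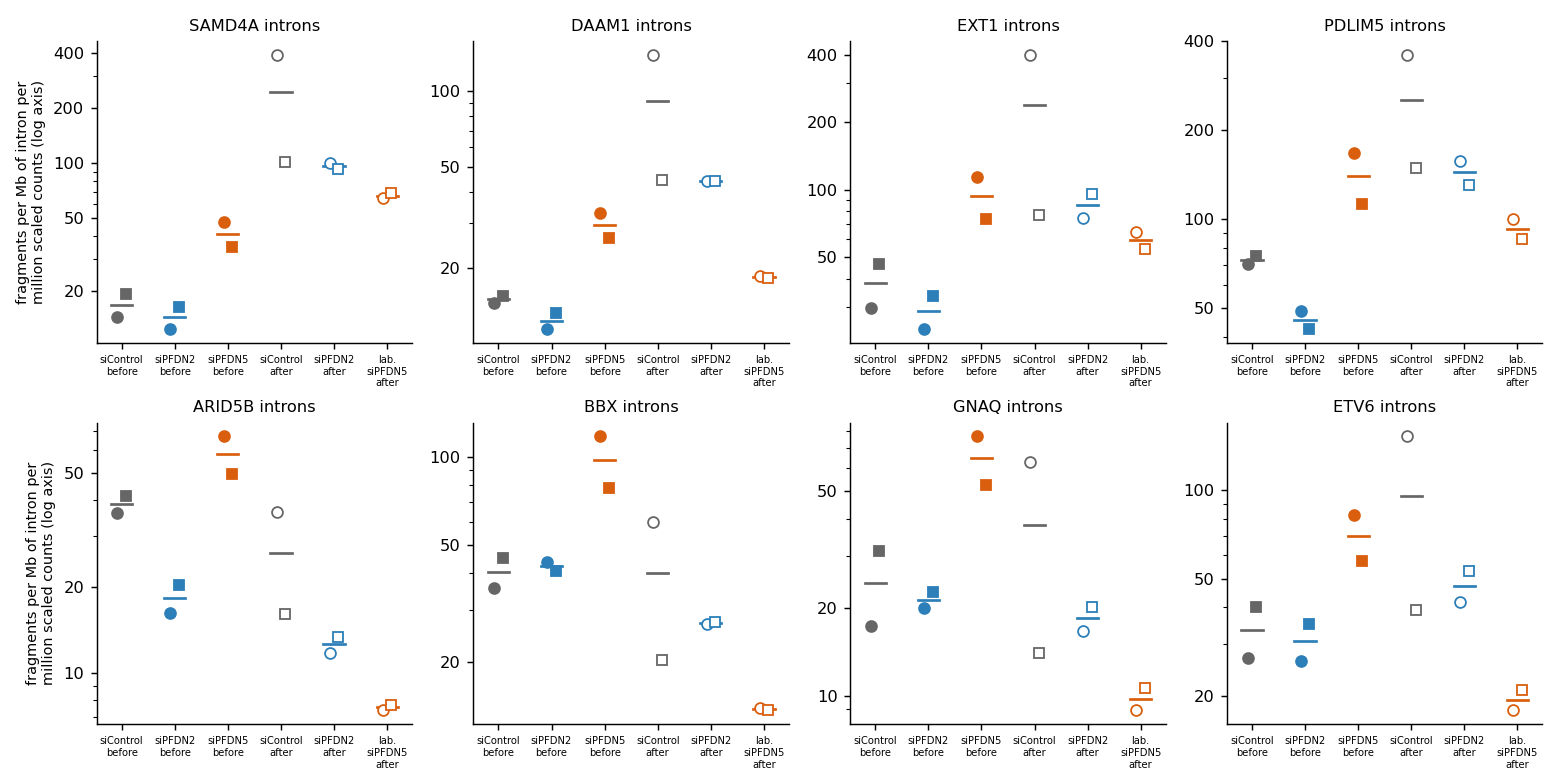
Intron density of 8 named members on a log axis, with 1 point per library (circle, replicate 1; square, replicate 2; filled, before serum; open, after serum; "lab." marks libraries labelled siPFDN5) and a bar at each group mean. In the lower row the 2 libraries labelled siPFDN5 after serum are the lowest of the 12 for all 4 genes, and in the upper row siControl after serum replicate 1 is the highest for all 4.

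After serum, the libraries labelled siPFDN5 were also compared with siControl. Introns of 120 of 191 members were called lower (33.5% of all genes) and 2 higher (0.506%), with a median log2 fold change of -1.18 over these members and -0.64 over all genes. These medians were -0.46 and -0.39 without siControl after serum replicate 1, and without both libraries that stood apart -0.45 and -0.39. In intron share 93 of 150 were called lower (38.4%) and 0 higher (0.474%), with 120 of the 150 at an unadjusted p under 0.05 in either direction. These calls changed when siControl after serum replicate 1 or either library labelled siPFDN5 was left out. Without replicate 1 or 2 so labelled, the median over the members in counts was still -1.15 and -1.14. Without that siControl library, or without either library labelled siPFDN5, 0 members were called in edgeR, in counts or share. At an unadjusted p under 0.05 there were still 75 members in counts and 50 in share without that siControl library, and 113 and 90, or 119 and 82, without replicate 1 or 2 labelled siPFDN5. With DESeq2 on all libraries 40 were called lower and 0 higher, and with intron-based scaling 12 lower and 3 higher. With both libraries that stood apart left out, 73 were called lower and 2 higher in counts and 48 lower in share. With a trend on transcript GC content removed, 41 were called lower and 3 higher in counts. In share, 3 were called lower with introns and exons scaled separately and 6 with the GC trend removed. In counts, DAAM1 (-2.31, SE 0.40, adjusted p = 0.0144), ETV6, a repressor of the ETS family (-2.29, SE 0.48, adjusted p = 0.0144), and TBL1X, a corepressor subunit (-2.13, SE 0.50, adjusted p = 0.0145), had the largest falls among members with a mean of at least 200 intron fragments. In share they were SH3KBP1 (-1.98, SE 0.48, adjusted p = 0.0206), PAM (-1.91, SE 0.44, adjusted p = 0.0201) and DAAM1 (-1.88, SE 0.46, adjusted p = 0.0207). None of these was called without siControl after serum replicate 1, at -1.27, -1.01 and -0.82 in counts (adjusted p = 0.0592, 0.0865 and 0.134) and -1.10, -1.06 and -0.98 in share (adjusted p = 0.0768, 0.0719 and 0.0756, edgeR). The 2 called higher, NYAP2 and SULF1, had means of 24.8 and 8.08 intron fragments a library and were picked after their values were known.

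Before serum, siPFDN5 stood above siControl. The median log2 fold change was 0.69 over the 191 members and 0.14 over all genes, and 176 of the 191 were positive, yet edgeR called 0 members, against 0.0405% of all genes called higher. At an unadjusted p under 0.05 there were 78 members, and DESeq2 called 11 higher. QKI, an RNA-binding protein, is an example: its introns stood at 14.8 and 19.5 per Mb in siControl and at 55.4 and 37.4 in siPFDN5, with no overlap and a log2 fold change of 1.43 (SE 0.43, adjusted p = 0.223, edgeR). The outcome of this comparison depended on libraries outside it. All 12 share 1 estimate of the spread, and leaving out a library also changes the scaling and the genes tested. The part of each was not tested. Without replicate 1 or 2 of siControl after serum, 88 and 82 members were called higher, and without both libraries that stood apart, 124 were. In intron share edgeR called 0 members (0.0% of all genes), 54 had an unadjusted p under 0.05, and 59 were called higher without either siControl library after serum. With siPFDN2, edgeR called 0 members before serum (0.0%; 5 at an unadjusted p under 0.05, 0 in DESeq2) and 0 after it (0.0%; 51 unadjusted, 0 in DESeq2). In intron share it called 0 as well (2 and 6 unadjusted, 0.0% of all genes at both times). Without siControl after serum replicate 2, the siPFDN2 comparison after serum reached 122 calls in counts and 106 in share.

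The direction of the serum response of long introns in siControl depended on 1 library. Over the members the median log2 fold change was 0.32 (149 of 191 positive), but -0.24 without replicate 1 after serum (66 of 202 positive) and -0.25 without both libraries that stood apart. In edgeR 13 members were called higher (4.75% of all genes) and 1, PLA2G4A, lower (0.85%). With siPFDN2 4 were called higher (2.66%) and 8 lower (7.04%). In intron share 3 and 1 members were called higher (0.688% and 0.26% of all genes) and 0 lower (0.295% and 0.462%), where 26 and 24 had an unadjusted p under 0.05. These counts were near the background of all genes and moved with single libraries. In siControl they were 5 higher and 5 lower without replicate 1 after serum, and 86 and 1 without replicate 2 after serum. Without both libraries that stood apart they were 10 higher and 28 lower, and in share 6 higher and 12 lower. They were 3 higher and 4 higher without replicates 1 and 2 before serum. In share the 3 became 0 without either replicate before serum, 2 without replicate 1 after it and 83 without replicate 2 after it. With siPFDN2, 0 members were called lower without replicate 2 before serum or without either replicate after it, where 1, 2 and 2 were called higher. With intron-based scaling the siPFDN2 median over the members went from -0.17 to 0.05, and 15 were called higher and 8 lower.

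SAMD4A (ENSG00000020577, chromosome 14, 54567097 to 54793315), an RNA-binding repressor of translation, had the largest rise in siControl. Its introns stood at 14.5 and 19.2 per Mb in siControl, 12.4 and 16.5 in siPFDN2 and 47.8 and 34.7 in siPFDN5 before serum. After serum they stood at 390 and 102, 100 and 93.4, and 64.8 and 68.4 per Mb, so that every library after serum exceeded every library before it. The log2 fold change in siControl was 3.86 (SE 0.49, adjusted p = 0.000415). With siPFDN2 it was 2.73 (SE 0.47, adjusted p = 0.00528), and with siPFDN5 0.69 (SE 0.44, adjusted p = 0.225, edgeR). Without siControl after serum replicate 1 the first of these was 2.60. The siControl change in intron share was 3.02 (SE 0.47, adjusted p = 0.0141), and with siPFDN2 it was 2.43 (SE 0.46, adjusted p = 0.0425). Without siControl after serum replicate 1 the first was 2.09 (adjusted p = 0.00113), and the siPFDN2 call in share was lost in 12 of 18 alternatives. Without siPFDN2 before serum replicate 2 the siPFDN2 change in counts was 2.95 and not called (adjusted p = 0.0702, edgeR). SAMD4A exons had 573 and 707 per Mb in siControl before serum and 963 and 908 after it.

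DAAM1 (ENSG00000100592, chromosome 14, 59188646 to 59371405), a formin that assembles actin, rose from 14.5 and 15.5 to 139 and 44.5 per Mb in siControl and from 11.46 and 13.3 to 44.2 and 44.0 in siPFDN2. The log2 fold changes were 2.60 (SE 0.41, adjusted p = 0.00196) and 1.82 (SE 0.40, adjusted p = 0.0166). In siPFDN5 it stood at 32.9 and 26.3 before serum and 18.5 and 18.3 in the libraries so labelled after it (-0.68, SE 0.39, adjusted p = 0.18). Its exons lay between 808 and 1266 per Mb in all 12 libraries. PDLIM5 (ENSG00000163110, chromosome 4, 94451857 to 94668227) went from 70.4 and 75.3 to 360 and 149 per Mb in siControl (1.80, SE 0.34, adjusted p = 0.00679). With siPFDN2 it went from 48.8 and 42.6 to 158 and 131 (1.65, SE 0.34, adjusted p = 0.0126). EXT1 (ENSG00000182197) went from 29.8 and 46.7 to 398 and 77.1 in siControl (2.63, SE 0.55, adjusted p = 0.0116). With siPFDN2 it went from 24.0 and 33.5 to 74.9 and 95.8 (1.57, SE 0.53, adjusted p = 0.0726). For these genes the 2 libraries after serum exceeded the 2 before it in siControl and in siPFDN2. The rise of EXT1 was not called without siControl after serum replicate 1 (1.02) or without either siControl library before serum (2.36 and 3.01). Without that first library the siControl rise of DAAM1 was 1.58 and that of PDLIM5 1.05. The siControl call of PDLIM5 was lost in 2 of the 12 fits that left out 1 library, and that of DAAM1 in 0. The siPFDN2 rises of DAAM1 and PDLIM5 were not called without siPFDN2 before serum replicate 2 (1.93 and 1.56, adjusted p = 0.15 and 0.146). The siPFDN5 value of DAAM1 turned positive, at 0.19, with the GC trend removed, and was 0.0044 in DESeq2.

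WWC1 (ENSG00000113645, chromosome 5, 168291651 to 168472303), a scaffold of the Hippo pathway, stood at 41.5 and 59.6 per Mb before serum and 375 and 130 after it in siControl (2.32, SE 0.39, adjusted p = 0.00323), and changed by 1.37 (adjusted p = 0.00436, edgeR) without replicate 1 after serum. The other members of the 13 were SH3KBP1, an adaptor for receptor endocytosis, PAM, MYOF and MSN, and, named after their values had been seen, DCLK1, a kinase on microtubules, CALD1, an actin-binding protein, PARVA, a focal adhesion protein, and BRIP1, a DNA helicase. Without siControl after serum replicate 1 DCLK1 changed by 2.89 (adjusted p = 0.000661, edgeR), and SH3KBP1 (0.87), PAM (0.66), MYOF (0.61), MSN (0.62), CALD1 (0.61), PARVA (0.52) and BRIP1 (0.44) were not called. DCLK1 was called higher with each siRNA, by 3.54 (SE 0.46, adjusted p = 0.000483), 2.85 (SE 0.45, adjusted p = 0.00332) and 2.22 (SE 0.46, adjusted p = 0.00371) in siControl, siPFDN2 and siPFDN5. It rested on 8 to 29 intron fragments a library before serum and 67 to 238 after it, at 0.243 to 0.791 and 2.69 to 7.94 per Mb. ESRRG was the other member called higher in siPFDN5 (1.25, SE 0.36, adjusted p = 0.0158), with a mean of 26.0 intron fragments a library.

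Among the members lower after serum with siPFDN2, KDM4B (ENSG00000127663, chromosome 19, 4969113 to 5153595), a histone demethylase, stood at 58.8 and 163 per Mb before it and 34.9 and 30.5 after it (-1.76, SE 0.40, adjusted p = 0.0191). Its value of 163 came from replicate 2, which stood apart by GC content. ZNF618 (ENSG00000157657, chromosome 9, 113876282 to 114056591), a zinc finger protein, went from 38.4 and 63.6 to 17.01 and 18.1 (-1.53, SE 0.39, adjusted p = 0.029), and ARHGEF10L, a guanine nucleotide exchange factor, from 37.7 and 85.4 to 24.0 and 18.9 (-1.52, SE 0.38, adjusted p = 0.0273). Without that replicate 2 none of the 3 was called (-0.84, -1.12 and -0.81). None was called without siPFDN2 after serum replicate 1 or replicate 2 either, where KDM4B changed by -1.73 and -1.57. Averaged over the 3 siRNAs, 11 members were called higher (6.28% of all genes) and 56 lower (25.9%), and in share 7 higher (2.47%) and 45 lower (22.2%). ZNF618 (-1.41, SE 0.22, adjusted p = 0.000512), ARID5B (-1.34, SE 0.20, adjusted p = 0.000298) and KDM4B (-1.27, SE 0.23, adjusted p = 0.00125) had the largest averaged falls in intron counts among members with a mean of at least 200 intron fragments. VPS8, a subunit of an endosomal tether, had an averaged fall in share of -1.25 (SE 0.18, adjusted p = 0.0012). The averaged response includes the libraries labelled siPFDN5, and its falls in counts numbered 33 without siPFDN5 before serum replicate 1 and 104 without siControl after serum replicate 1. Without both libraries that stood apart 109 members were called lower and 13 higher.

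**Figure D5:**
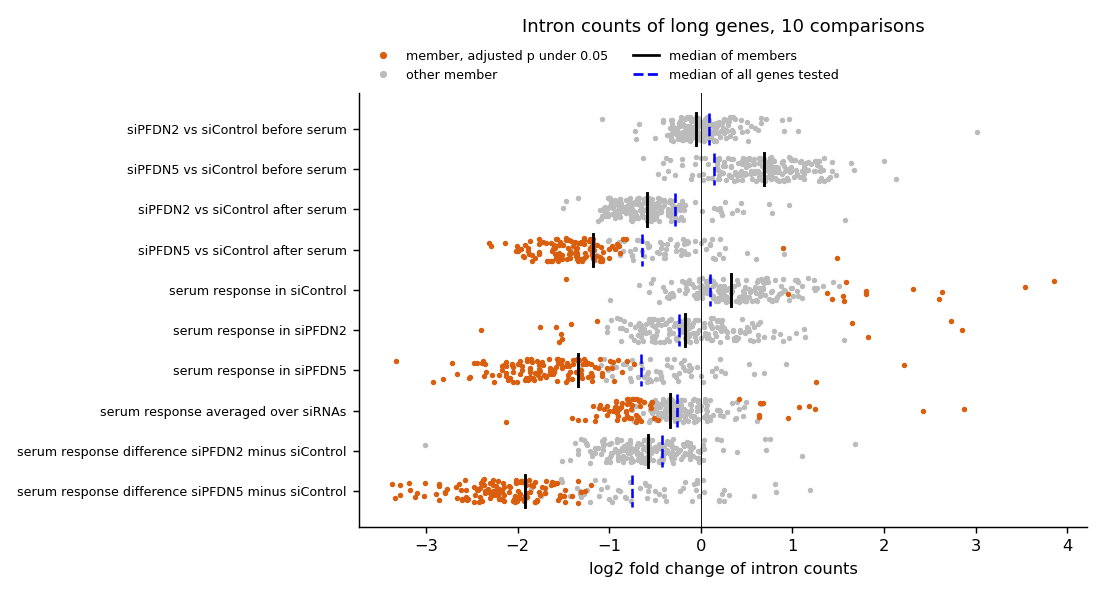
Log2 fold change of intron counts for the 191 tested members (points; orange at an adjusted p under 0.05) in the 10 comparisons, with the median of the members (black bar) and of all genes tested (dashed blue bar). The members' median lies at -1.34 for siPFDN5 after serum against before it, and at 0.32 for siControl, where it is -0.24 without siControl after serum replicate 1.

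Whether the serum response of a member differed between siRNAs was tested as a difference of responses. For siPFDN5 minus siControl 132 members were called lower and 0 higher (29.5% and 0.243% of all genes), with a median of -1.92 over the members and -0.76 over all genes. Both medians were nearer 0 without siControl after serum replicate 1, at -1.21 and -0.57, and without both libraries that stood apart -1.22 and -0.57. There were 143 at an unadjusted p under 0.05 in either direction, and DESeq2 called 90 lower and 0 higher. This test shares the siControl libraries and siPFDN5 libraries with the comparisons above and is not separate evidence. It called 79 members without replicate 2 labelled siPFDN5 after serum, 111 members without siControl after serum replicate 1, and 0 without siControl before serum replicate 1, without siPFDN5 before serum replicate 1 or without replicate 1 labelled siPFDN5 after serum. For siPFDN2 minus siControl edgeR called 0 members (0.0%; 16 unadjusted, 0 in DESeq2), and 73 lower without siControl after serum replicate 2.

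Few members stand on the role lists. Of 49 genes listed for growth factor and kinase signalling 2 were members, and both were called lower in siPFDN5 after serum. INSR, the insulin receptor, went from 28.9 and 26.7 to 8.90 and 5.81 per Mb (-1.90, SE 0.34, adjusted p = 0.00215). PLCB4, a phospholipase C, changed by -1.57 (SE 0.40, adjusted p = 0.00911). In Wnt, TGF-beta, Hippo and Notch signalling 2 of 4 members were called lower in siPFDN5, with a list median of -0.98. They were NOTCH2 (-1.19, SE 0.32, adjusted p = 0.0114) and BMP6, a secreted ligand (-1.33, SE 0.42, adjusted p = 0.024). WWC1 (-0.13, SE 0.38, adjusted p = 0.808) and BMPR1B, a receptor of that ligand family (-0.77, SE 0.34, adjusted p = 0.0814), were not called.

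Genes of the adhesion and cytoskeleton list that were called lower in siPFDN5 include TNS3, a tensin at focal adhesions (-1.72, SE 0.39, adjusted p = 0.00512), ROCK1, a kinase that promotes actomyosin contraction (-1.47, SE 0.32, adjusted p = 0.00442), and EPB41L2, a membrane skeleton protein (-1.89, SE 0.41, adjusted p = 0.00424). ROCK1 introns stood at 105 and 88.4 per Mb in siPFDN5 before serum and at 34.6 and 35.0 in the libraries so labelled after it. In siControl before serum ROCK1 stood at 52.4 and 63.6, between these pairs.

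Of chromatin and transcription regulators 2 of 3 members were called lower in siPFDN5. KDM6A, a histone demethylase, changed by -1.61 (SE 0.37, adjusted p = 0.00567) and ETV6 by -1.84 (SE 0.48, adjusted p = 0.00943), whereas AUTS2 stood at -0.11 (SE 0.36, adjusted p = 0.826). Both RNA-binding members were called lower, RBMS1 (-2.13, SE 0.35, adjusted p = 0.00171) and QKI (-2.18, SE 0.44, adjusted p = 0.00336). So were both on the ubiquitin and trafficking list, FBXL17, a subunit of ubiquitin ligases (-1.63, SE 0.41, adjusted p = 0.00848), and VPS8 (-2.06, SE 0.31, adjusted p = 0.0012). Of 2 neuronal members CACNA1A was called lower (-0.80, SE 0.27, adjusted p = 0.0307) and KCNH5, a potassium channel with a mean of 11 intron fragments a library, was not (-0.04, SE 0.50, adjusted p = 0.956). Of 2 genes at common fragile sites, ESRRG was called higher and AUTS2 was not called. These counts stand beside the 37.5% of all genes called lower in that comparison. PLCB4, NOTCH2, BMP6, ETV6 and FBXL17 were not called without siPFDN5 before serum replicate 1 or without either replicate labelled siPFDN5 after serum. TNS3 and ROCK1 were not called without replicate 1 so labelled, KDM6A without replicate 2 so labelled, CACNA1A without any 1 of the siPFDN5 libraries, and ESRRG without replicate 1 at either time. The calls of NOTCH2, BMP6 and CACNA1A were also lost under intron-based scaling, under DESeq2 and after removal of the GC trend, where AUTS2, KCNH5 and WWC1 turned positive without a call.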

How the data were processed

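The deposited files hold whole-number counts of fragments per gene body and per merged exons, made by the authors with featureCounts 1.5.2 on Ensembl 87 genes, paired fragments, overlapping features allowed and no strand, per the file headers. The submitters' processing notes also name HISAT2 0.12.2, kallisto 0.43 and GRCh38.p7. Gene types were taken from GENCODE 29, which held 57447 of 58051 listed genes; 6 columns matching no sample were not used. Without strand, antisense RNA that is not annotated is counted as intron. Fragments that touch an exon count as exon. Intron counts were fitted with edgeR 4.0.16 (R 4.3.3, prior count 2, low-count filter, TMM from gene-body counts) over all 12 libraries, and shares as an interaction of intron and exon counts with each library as a term. DESeq2 1.42.0 was an alternative. Counts cover 59784425 to 136504590 fragments per library, and intervals on them would cover counting error only. The tests were also run on simulated counts with a fixed spread and no library that stood apart. That run does not cover the spread of these data. The members and the role lists were chosen with earlier results of these data known. Genes were named if, per comparison, they had up to 3 of the largest changes each way with an adjusted p under 0.05, a mean intron count of at least 200 and groups that did not overlap (not asked of averaged responses or differences), or were extreme in length, density or share, next to the length limit, or on a role list. The alternatives were other scalings, filters, GC trends, a replicate block and leaving out libraries. A member of the adhesion and cytoskeleton list is not reported here.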

Additional observations from a re-analysis of the deposited data

Results flagged for a closer look

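The serum response of introns differed between siPFDN5 and siControl in 132 members, all with a lower response in siPFDN5, by the contrast of responses in edgeR over all genes tested. The largest differences among members with a mean of at least 200 intron fragments were -3.37 for GNAQ (SE 0.73, adjusted p = 0.0115), -3.34 for ETV6 (SE 0.67, adjusted p = 0.0115) and -3.29 for EXT1 (SE 0.75, adjusted p = 0.0115) on the log2 scale. Without siControl after serum replicate 1 they were -1.94, -2.08 and -1.68 (adjusted p = 0.0112, 0.0106 and 0.0139), and over the libraries left out 1 at a time they ran from -4.08 to -1.94, -4.01 to -2.08 and -4.03 to -1.68. All rest on libraries labelled siPFDN5 after serum in which PFDN5 was not lowered. No members were called without siControl before serum replicate 1, siPFDN5 before serum replicate 1 or replicate 1 labelled siPFDN5 after serum, where 134 to 139 still had an unadjusted p under 0.05.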

How the results depend on the processing

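Counts below are members called in either direction, and the cause of each change was not tested. With introns scaled by their own TMM factors, intron counts gave 1 call for siPFDN5 before serum, 15 after it, 23 for serum in siPFDN2 and 66 for the siPFDN5 difference. Without the low-count filter they gave 1 and 48 for siPFDN2 and siPFDN5 before serum, 11 for siPFDN2 after it, 33 and 26 for serum in siControl and siPFDN2 and 1 for the siPFDN2 difference. With a transcript GC trend removed they gave 4 and 44 for siPFDN5 before and after serum, 26 and 23 for serum in siControl and siPFDN2, and 77 for the siPFDN5 difference. With only non-overlapping genes they gave 1 and 7 for siPFDN2 and siPFDN5 before serum. DESeq2 gave 11 and 40 for siPFDN5 before and after serum, and 24 for serum in both siControl and siPFDN2. Without both libraries that stood apart, they gave 1, 124 and 75 for siPFDN2 before, siPFDN5 before and siPFDN5 after serum, and 38 (10 higher and 28 lower), 33 (17 and 16) and 122 (13 and 109) for serum in siControl, siPFDN2 and on average. In share, separate scaling of introns and exons gave 3 for siPFDN5 after serum and 16, 11 and 65 for serum in siControl, siPFDN2 and siPFDN5; the GC trend gave 6, 21, 13 and 64. At least 50 counts in every library gave 1 and 0 for serum in siControl and siPFDN2, and non-overlapping genes gave 11 and 6. Without both libraries that stood apart, share gave 107 and 48 for siPFDN5 before and after serum, and 18 (6 higher and 12 lower), 19 (13 and 6) and 109 (8 and 101) for serum in siControl, siPFDN2 and on average.

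Leaving out 1 library at a time gave 0 to 3, 0 to 88, 0 to 122 and 0 to 137 calls in intron counts for siPFDN2 and siPFDN5 before and then after serum. Serum gave 3 to 87, 1 to 35, 66 to 141 and 41 to 115 in siControl, siPFDN2, siPFDN5 and on average, and the differences 0 to 73 and 0 to 141. In share the ranges were 0 to 0, 0 to 59, 0 to 106 and 0 to 129, then 0 to 83, 0 to 21, 9 to 125 and 27 to 106.

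Pooled share without the 10 members with the most counts was 18.6%, 20.3% and 28.4% before serum in siControl, siPFDN2 and siPFDN5, and 18.9% and 12.5% after it in siPFDN2 and the libraries labelled siPFDN5. Median intron density without the filter was 7.75, 7.68 and 14.7 per Mb before serum and 6.51 and 4.41 after it in the same order, and with library size only it was 12.4 and 8.27 after it. For group values, leaving out 1 library gives the other library's value: 14.4 to 15.8, 14.6 to 18.6, 20.4 to 25.6, 14.9 to 32.2, 15.9 to 16.5 and 10.3 to 10.5% pooled share, and 14.5 to 18.5, 14.04 to 15.4, 26.4 to 32.2, 13.4 to 33.0, 13.2 to 13.4 and 8.90 to 9.14 per Mb median density.

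Replicate numbers are shared by the groups, but whether they pair the libraries is not known. Correlations of same-numbered deviations over 15 pairs of groups ran from -0.29 to 0.25. With 2 libraries a group, of which some stood apart, these cannot exclude pairing. With the replicate block, serum in siPFDN2 gave 7 calls in counts and 0 in share, and serum in siControl 1 in share. For 80 tests of named genes the call stayed on its side of the threshold 1321 times over these settings, was lost 207 times and gained 27 times, and 13 values changed sign, none of them called in the test as reported. All 13 concern serum in siPFDN5. With intron scaling WWC1, AUTS2 and KCNH5 stood at 0.54, 0.52 and 0.52, with the GC trend removed at 0.43, 0.40 and 0.71, and in DESeq2 at 0.56, 0.57 and 0.64. BMPR1B stood at 0.086 and DAAM1 at 0.19 with the GC trend removed, DAAM1 at 0.0044 in DESeq2, and KCNH5 between -0.080 and 0.014 over the libraries left out. The gene-body GC alternative was not run and was replaced by transcript GC; that and leaving out both libraries were chosen after seeing the data. With 2 libraries a group, a lone library was assumed to vary like the other groups, and members with few intron fragments could not show small changes.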
